A study of Homo sapiens with 3 samples.

Results

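The transcripts described here are those of 6 genes of YAP, TAZ and SRF signalling: CCN1, CCN2, ANKRD1, LATS2, WWC1 and FHL2. They were measured as 8 probes, out of 47323 on the array, in LNCaP cells kept for 24 h with bufalin at 10 nM, with bufalin at 20 nM or with ethanol, the vehicle. LNCaP is an established androgen-responsive line grown from a lymph node metastasis of human prostate cancer, and bufalin, a cardiotonic steroid from toads, inhibits Na,K-ATPase. All cells were the same line in serum-containing medium, and each treatment had 1 Illumina bead array, so no value below has a replicate check and no test between treatments was made. The genes were chosen with their values on these arrays known, so their own differences from vehicle are a description and not evidence that the pathways stand apart. Every probe that carried 1 of the 6 symbols was taken, each probe apart, and all 8 were detected on at least 1 array. Symbols were at hand for 10952 of the probes on the array, so other probes of these genes may be present unnamed and were not read. A probe was called detected where its deposited detection p-value was below 0.01.

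YAP and TAZ are transcriptional coactivators that enter the nucleus and act through TEAD proteins, which bind DNA. The Hippo kinases, ending in LATS1 and LATS2, phosphorylate YAP and TAZ and hold them in the cytoplasm. SRF binds the CArG box and works with MRTF cofactors, which are released when actin polymerizes, or with ternary complex factors such as ELK1, which respond to MAP kinases. CCN1, CCN2 and ANKRD1 are widely used readouts of YAP and TAZ, CCN1 and FHL2 are known SRF targets, LATS2 is both a YAP target and a YAP inhibitor, and WWC1 (KIBRA) is a scaffold that promotes LATS activity.

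The 2 matricellular genes lay among the probes farthest above vehicle at both doses, ANKRD1 and LATS2 went from not detected to detected, FHL2 differed from vehicle at the higher dose and WWC1 stood below vehicle. At 10 nM, 5 of the 8 probes (4 of the 6 genes) were at least 2-fold above vehicle, 0 were at least 2-fold below and 3 lay within 2-fold, and the median log2 fold change was 1.78. Over all 15756 probes detected on either array, 4.98% were at least 2-fold higher and 2.77% at least 2-fold lower, with a median of -0.04. At 20 nM, 7 probes (5 genes) were at least 2-fold higher and 1 was lower, with a median of 3.01, against 12.3% higher and 12.8% lower of 16112 probes and a median of -0.02. From 10 to 20 nM, 7 probes were at least 2-fold higher, 0 lower and 1 within 2-fold, and the median was 1.63, against 2.63% and 3.59% of 15724 probes and a median of 0.02. The 8 probes come from the named probes, among which genes that were dim or that differed little are mostly missing. Among detected named genes, by brightest probe, 6.41% were at least 2-fold higher and 3.24% lower at 10 nM. At 20 nM the shares were 14.7% and 16.6%, and between the doses 2.72% and 4.82%. Both bufalin arrays were set against the same vehicle array, so the comparisons with vehicle share its error.

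**Figure D1:**
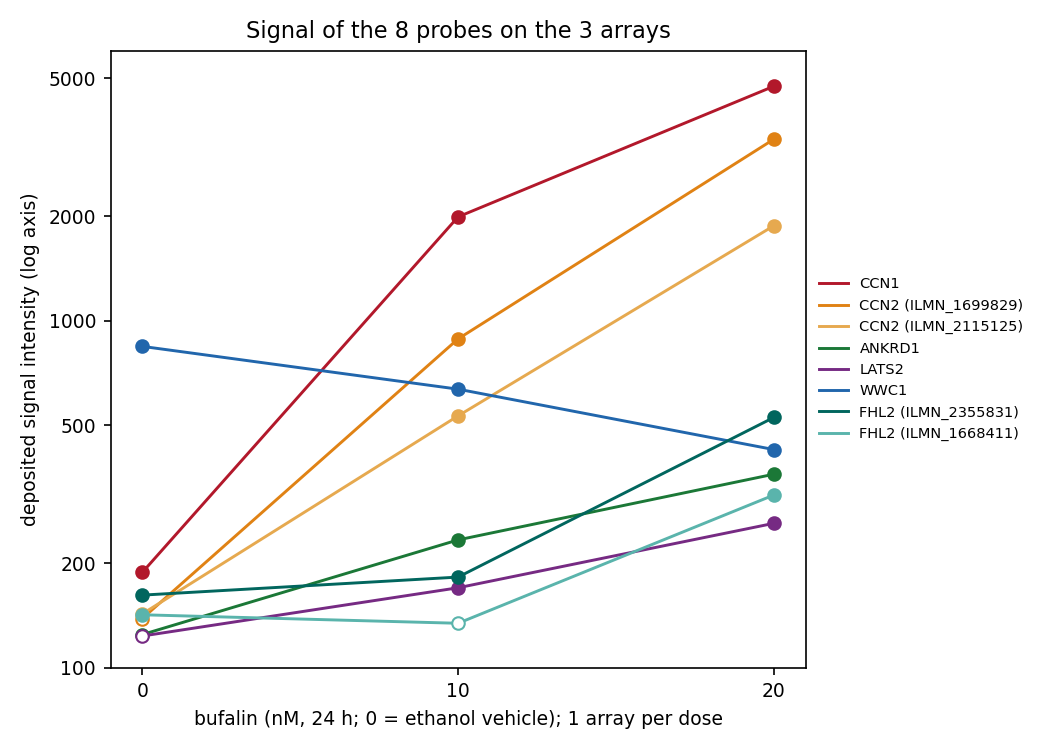
Deposited signal intensity (log axis) of the 8 probes against the bufalin dose in nM, with 1 array per dose and 0 standing for ethanol. Filled points are detected and open points are not. CCN1 and both CCN2 probes climb from 188 or less to between 1880 and 4742, WWC1 descends from 844 to 426, and both FHL2 probes stay between 134 and 183 until 20 nM.

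CCN1 (CYR61) encodes a secreted matricellular protein that binds integrins and heparan sulfate. Its probe, ILMN_2188264, read 188 on vehicle, 1993 at 10 nM and 4742 at 20 nM. The probe was detected on all 3 arrays, but the vehicle signal lay not far above the array median of 119.5. The log2 fold change against vehicle, after background removal and normalization, was 4.39 at 10 nM and 5.65 at 20 nM, and the step between the doses was 1.25. These differences ranked 2 among all detected probes at either dose and 127 of 15724 between the doses. Measured on signal, 39.6% of the difference at 20 nM was already present at 10 nM.

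CCN2 (CTGF, connective tissue growth factor) encodes a paralog of CCN1, a secreted protein that promotes matrix production. Its brighter probe, ILMN_1699829, read 139 on vehicle, 887 at 10 nM and 3337 at 20 nM, and its dimmer probe, ILMN_2115125, read 143, 532 and 1880. Both probes stood in the same order over the 3 treatments, although the brighter probe had a detection p-value of 0.0104 on the vehicle array and was just short of detected there. After background correction it was at least 19.1-fold above vehicle at 10 nM and at least 77.0-fold at 20 nM, and without that correction its log2 fold changes were 2.67 and 4.55, the latter below the 4.60 of CCN1. The dimmer probe, detected on all 3 arrays, had log2 fold changes of 3.26 and 5.29, the latter ranking 5 of 16112, and of 1.88 and 3.69 without the correction. Between the doses the log2 fold changes of the probes were nearly equal, 2.01 and 2.02, while against vehicle the brighter probe lay farther out.

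The 250 bases before the CCN2 start in RefSeq (chr6:131951373-131951622, GRCh38.p14, minus strand) are printed because they hold 3 copies of GGAATG, the motif bound by TEAD proteins, shown in capitals. Promoters of 5 of the 6 genes were matched in the RefSeq table, and CCN1, which had none there, was not searched. Of 35114 promoter windows of the same length, 11.89% held at least 1 copy on either strand and 29 windows (0.0826%) held 3 or more. The copies start 169, 104 and 95 bases before the gene start, and none overlaps another motif searched. A match describes the letters and not binding.
CCN2 promoter: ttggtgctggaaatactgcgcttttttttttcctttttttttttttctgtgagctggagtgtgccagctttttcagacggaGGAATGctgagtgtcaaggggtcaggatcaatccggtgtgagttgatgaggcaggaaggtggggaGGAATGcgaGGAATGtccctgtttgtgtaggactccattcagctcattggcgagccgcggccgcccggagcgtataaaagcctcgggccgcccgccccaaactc

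ANKRD1 encodes an ankyrin repeat protein of muscle that also acts in the nucleus. Its probe, ILMN_1716264, read 125 on vehicle, where it was not detected, 234 at 10 nM and 361 at 20 nM. The signal went from within the array background to brighter than 86.7% of probes at 20 nM. After background correction the difference was at least 3.26-fold at 10 nM and at least 6.62-fold at 20 nM, and the log2 fold change between the doses, both detected, was 1.02. Without background correction the log2 fold change was 0.89 at 10 nM, below the 2-fold mark, 1.56 at 20 nM and 0.67 between the doses. These values lie below the bounds, which hold only under the correction used.

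The window before the ANKRD1 start (chr10:90921088-90921337, GRCh38.p14, minus strand) is shown because it held 2 copies of GGAATG, found 2 or more times in 0.94% of windows. It also held a copy of TGANTCA, a pattern wider than the motif of AP-1 factors because any central base was allowed, found in 6.57%. The copy here, TGATTCA, has a central T, where the AP-1 motif has C or G. The capitals mark all 3 matches, which do not overlap.
ANKRD1 promoter: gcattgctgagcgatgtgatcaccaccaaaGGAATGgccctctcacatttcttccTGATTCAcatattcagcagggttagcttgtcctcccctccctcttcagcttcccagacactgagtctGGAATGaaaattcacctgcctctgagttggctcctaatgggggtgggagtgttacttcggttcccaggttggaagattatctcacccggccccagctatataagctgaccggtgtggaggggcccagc

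LATS2 encodes the Hippo kinase that phosphorylates YAP and TAZ. Its probe, ILMN_1703412, read 124 on vehicle, again not detected, 170 at 10 nM and 261 at 20 nM. After background correction it was at least 1.71-fold above vehicle at 10 nM and at least 4.08-fold at 20 nM. Without that correction the log2 fold changes were 0.44 and 1.09, and with an offset of 50 the 20 nM value was 1.71. Its log2 fold change of 1.34 at 10 nM counts among the 5 probes above, but at its bound or with an offset of 50 (0.75) it does not pass 2-fold. Between the doses, where it was detected on both arrays, it was 1.26, close to the value of CCN1. Without background correction that step was 0.66 for LATS2 and 1.21 for CCN1, so the likeness depends on the correction.

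WWC1 encodes KIBRA, the scaffold upstream of LATS. Its probe, ILMN_1658619, read 844 on vehicle, 635 at 10 nM and 426 at 20 nM, detected on every array. Of the 6 genes it alone stood below vehicle at both doses by its brightest probe. Against vehicle its log2 fold change was -0.53 at the lower dose and -1.19 at the higher, and the step between them was -0.66. At 20 nM it ranked 1406 from the lowest of 16112 probes, and without background correction the value was -0.99, just short of 2-fold. On the array signal 49.8% of the 20 nM difference was present at 10 nM.

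FHL2 encodes a LIM-only adaptor that binds actin-linked complexes and transcription factors, among them the androgen receptor and SRF. Its brighter probe, ILMN_2355831, read 162 on vehicle, 183 at 10 nM and 527 at 20 nM. Its dimmer probe, ILMN_1668411, annotated to another transcript, read 142, 134 and 315 and was not detected at 10 nM. Both probes were low on the vehicle and 10 nM arrays and high at 20 nM. The brighter probe stood at 0.37 on the log2 scale at 10 nM, and at 20 nM the probes stood at 2.77 and 2.33 above vehicle. From 10 to 20 nM ILMN_2355831 was 5.28-fold higher and ILMN_1668411 at least 5.44-fold, and the former ranked 5 of 15724 probes. Without background correction these log2 fold changes were 1.56 and 1.25, so the size of the step depends on it. The 10 nM array held 5.6% of the 20 nM signal difference by the brighter probe, against 22.4% to 46.1% for CCN1, CCN2, ANKRD1 and LATS2. Because each dose had 1 array, this difference in dose pattern was not tested.

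Of the 4 RefSeq starts of FHL2, 3 had a CArG box in the preceding 250 bases, which 1.16% of windows held, and the remaining start had a copy of GGAATG instead. The windows of starts 3 and 4 overlap and share their CArG box. The boxes of start 1 (chr2:105399052-105399301) and start 3 (chr2:105438514-105438763), both GRCh38.p14 and minus strand, are in capitals and are shown because they differ in their central letters.
FHL2 start 1: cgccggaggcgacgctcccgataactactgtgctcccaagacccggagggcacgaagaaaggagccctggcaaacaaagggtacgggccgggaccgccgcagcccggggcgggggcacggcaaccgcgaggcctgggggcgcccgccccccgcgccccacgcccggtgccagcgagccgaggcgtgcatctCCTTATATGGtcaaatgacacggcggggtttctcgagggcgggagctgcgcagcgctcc
FHL2 start 3: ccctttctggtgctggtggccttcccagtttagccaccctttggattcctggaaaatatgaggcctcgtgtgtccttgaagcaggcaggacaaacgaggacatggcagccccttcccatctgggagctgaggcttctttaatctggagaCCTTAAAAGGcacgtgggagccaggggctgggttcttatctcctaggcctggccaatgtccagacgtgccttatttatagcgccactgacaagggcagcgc

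The windows of LATS2 and WWC1 held no match to any of the 4 motifs searched. The last of these was TATAAA, which 10.72% of windows held. It was found before CCN2, starting 32 bases from the start, and before FHL2 starts 3 and 4 on the other strand.

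**Figure D2:**
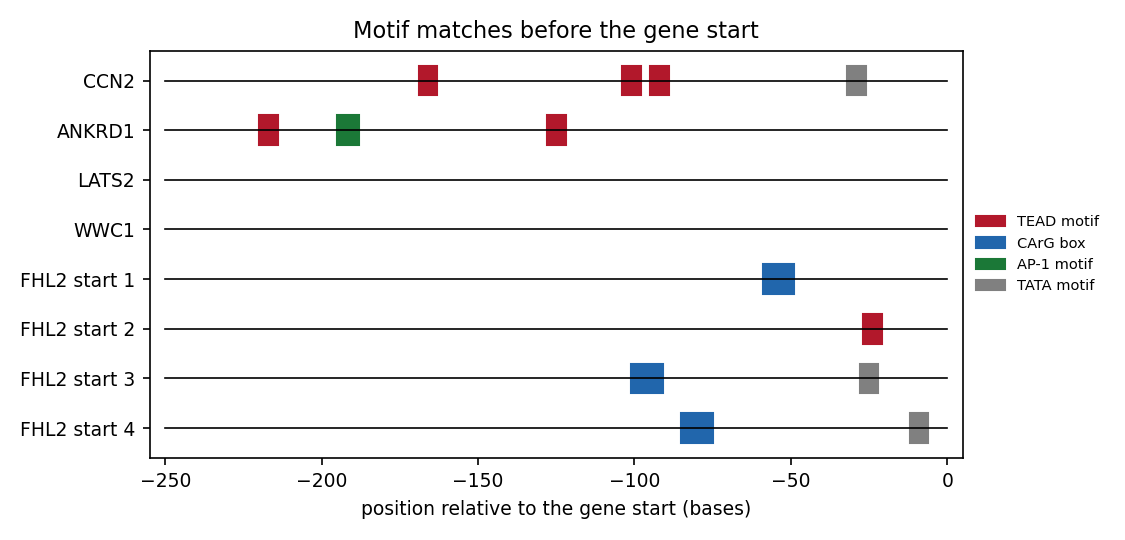
Matches to 4 motifs on either strand in the 250 bases before each gene start, with the horizontal axis in bases relative to that start. CCN2 holds 3 TEAD motifs and ANKRD1 holds 2, FHL2 starts 1, 3 and 4 hold a CArG box, and LATS2 and WWC1 hold none. The match labelled AP-1 allows any central base. CCN1 was not searched and is not drawn.

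**Figure D3:**
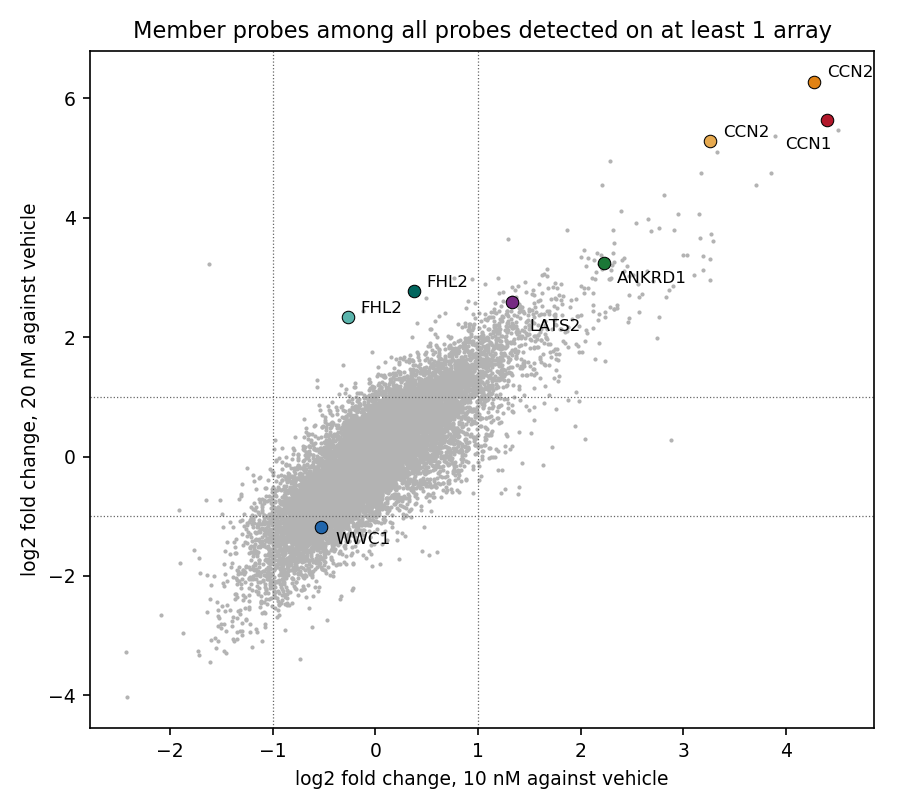
Log2 fold change against vehicle at 10 nM (horizontal) and 20 nM (vertical) for every probe detected on at least 1 array, with the 8 probes of the 6 genes named and dotted lines at 2-fold. CCN1 and CCN2 lie at the far upper right, the FHL2 probes lie above the cloud near 0 at 10 nM, and WWC1 lies within the cloud at the lower left. Both axes use the same vehicle array.

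For each gene, the named genes with the nearest pair of log2 fold changes were found by Euclidean distance over the 2 doses, among genes detected on the same arrays as its brightest probe. CCN1, WWC1 and FHL2, detected on all 3 arrays, had 7094 candidates, and CCN2, ANKRD1 and LATS2, not detected on vehicle, had 321, so distances are not compared between these sets. Nearest to CCN1 was PPP1R15A, a phosphatase subunit gene of the stress response, at a distance of 1.51, followed by GADD45A (2.02) and ATF3 (2.15). WWC1 lay beside XPO4 (0.01), NSMCE1 (0.02) and DHX40 (0.02), and FHL2 had ZNF143 (0.54), HIC2 (0.54) and GPNMB (0.56) as neighbours. Nearest to CCN2 were GADD45B (0.85), CREBRF (0.99) and TCIM (1.59). ANKRD1 lay beside the transcription factor gene KLF4 (0.18), TRIP10 (0.18) and LRRC31 (0.34), and LATS2 beside the protease gene CTSK (0.10), LAMB2P1 (0.18), a pseudogene, and YPEL2 (0.19). In a search over all 8334 named genes detected on any array, added after the values were seen, the nearest to CCN1 were GADD45B (0.21), CREBRF (0.58) and CCN2 (0.65), and the nearest to FHL2 was ASGR1 (0.17). Where a gene was not detected on vehicle its fold, and so its distance, is uncertain, and each distance rests on 3 arrays and shares the vehicle array.

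The rest of the pathways was read from fixed lists, each gene by its brightest named probe. Names were at hand only for probes of the smaller deposited table. It holds probes with a detection p-value below 0.05 on 2 or more arrays whose signal also differed from vehicle. Genes that were dim or that differed little are therefore mostly missing. Of 22 YAP and TAZ targets, 9 were named and detected: 5 passed 2-fold upward at 10 nM and 6 at 20 nM, 0 passed it downward at either dose, and the medians were 1.34 and 2.59. Among all detected named genes, 6.41% were at least 2-fold higher and 3.24% lower at 10 nM (median -0.04), and 14.7% and 16.6% at 20 nM (median -0.10). The list contains 4 of the genes described above. Over the other 5 its median was 0.70 at 10 nM and 0.56 at 20 nM, and the members at least 2-fold higher at 20 nM were the growth arrest gene GADD45A (log2 fold change of 4.06), also a p53 target, and the phosphatase gene PTPN14, at least 3.03-fold.

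Genes for YAP and the factors it works with stood on both sides of vehicle. YAP1 read 469 on vehicle, 914 at 10 nM and 1152 at 20 nM, log2 fold changes of 1.13 and 1.50. TEAD4, which encodes a DNA-binding partner of YAP, read 480, 338 and 177, with log2 fold changes of -0.70 and -2.22, so it was 4.67-fold lower at 20 nM. At 20 nM TEAD3 stood at 1.27 and VGLL4, a TEAD cofactor gene that competes with YAP, at 1.37. YAP1 and TEAD4 thus lay on opposite sides of vehicle at both doses. Of the 5 detected genes in this list of 9, 3 passed 2-fold upward and 0 downward at 10 nM. At 20 nM 3 passed it upward and 1 downward, and the medians at the 2 doses were 1.08 and 1.27. Among all detected named genes 6.41% passed upward and 3.24% downward at 10 nM, and 14.7% and 16.6% at 20 nM.

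Of 24 genes of the Hippo cascade and its regulators, 16 were named. At 10 nM 3 of the 14 detected ones passed 2-fold upward and 0 downward, and at 20 nM 5 of 15 upward and 2 downward, with medians of 0.36 and 0.64. Over all detected named genes the shares were 6.41% upward and 3.24% downward at 10 nM, and 14.7% and 16.6% at 20 nM. Without LATS2 and WWC1, 2 of 12 passed upward at 10 nM, and 4 of 13 upward and 1 downward at 20 nM, with the same medians. Besides LATS2 and PTPN14, the kinase gene STK3 (MST2) read 634, 1038 and 1724 and stood at 0.80 and 1.57, and its adaptor gene SAV1 read 205, 318 and 412 and stood at 1.04 and 1.62. The LATS cofactor gene MOB1A, named after its value was seen, was at 1.13 at 20 nM by its brighter probe and 0.34 by the other, and its paralog MOB1B, likewise named afterwards, was at -0.98. The lower genes were WWC1 and AMOT, a YAP-binding scaffold gene also named after its value was seen, at -1.08.

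SRF itself was well above vehicle: its probe read 950 on vehicle, 2289 at 10 nM and 4242 at 20 nM, log2 fold changes of 1.34 and 2.20. The cofactor genes differed less. At 20 nM ELK1 stood at 0.82, MRTFA, not detected on vehicle, was at least 1.41-fold higher, and ELK4 was at least 1.51-fold lower by its brightest probe, while another ELK4 probe, detected at 20 nM alone, read 130 on vehicle and 155 at 20 nM. SRF was the 1 gene of the 5 detected in this list of 7 that passed 2-fold at either dose, with 0 lower and list medians of 0.39 and 0.79. Over all detected named genes 6.41% were at least 2-fold higher and 3.24% lower at 10 nM, and 14.7% and 16.6% at 20 nM.

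Of 22 SRF targets of the actin cytoskeleton, 17 were detected at 10 nM with 1 at least 2-fold higher, against 6.41% of all named genes, and 15 at 20 nM with 6 higher, against 14.7%. None was at least 2-fold lower at either dose, against 3.24% and 16.6% of all named genes, and the medians were 0.46 and 0.57. Without FHL2, 1 of 16 was higher at 10 nM and 5 of 14 at 20 nM. The focal adhesion gene ZYX read 405, 807 and 1389 and stood at 1.20 and 2.07. The tropomyosin gene TPM4 stood at 0.82 and 1.50 and the transgelin gene TAGLN at 0.45 and 1.28. Beside these, FHL2 at 2.77 was the member farthest from vehicle at 20 nM. Of 13 immediate early SRF targets, 8 were detected, 6 passed 2-fold upward at 10 nM and all 8 at 20 nM, 0 passed it downward, and the medians were 1.38 and 2.43. After background correction FOS was at least 14.0-fold higher at 20 nM, with signals of 118.1 on vehicle, where it was not detected, and 670.5 at 20 nM. Log2 fold changes at 20 nM were 4.06 for ATF3, 3.66 for DUSP1 and 2.53 for JUNB.

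**Figure D4:**
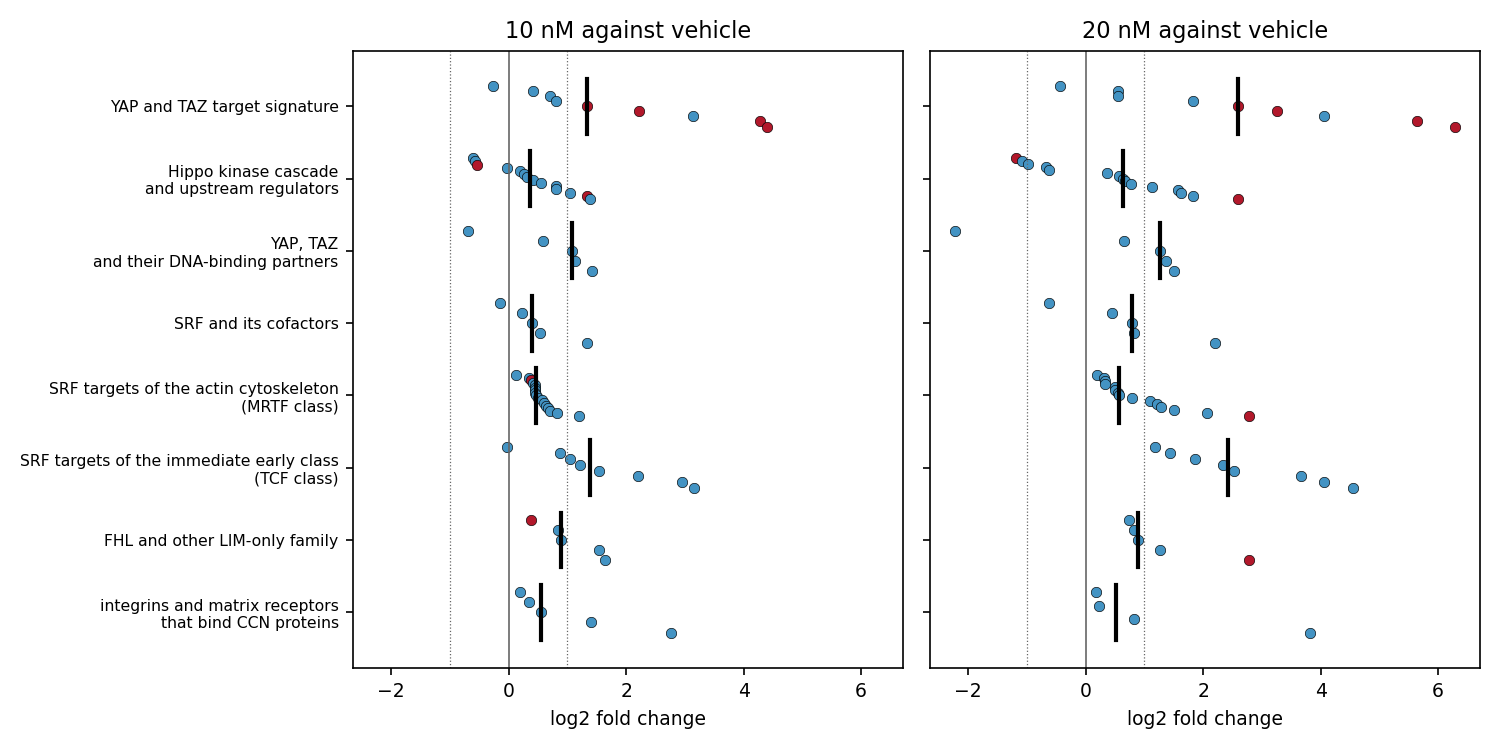
Log2 fold change against vehicle of each detected named gene in 8 of the fixed lists, at 10 nM and at 20 nM. Red points are the 6 genes, blue points other genes, black bars list medians and dotted lines 2-fold. The immediate early SRF targets all lie past 2-fold at 20 nM, whereas 9 of 15 cytoskeletal targets lie within 2-fold there.

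Receptors and family members gave fewer values. For the counts below, 6.41% of all detected named genes were at least 2-fold higher and 3.24% lower at 10 nM. At 20 nM these shares were 14.7% and 16.6%. Of 9 integrins and other receptors that bind CCN proteins, SDC4, a heparan sulfate proteoglycan gene, read 194, 746 and 1452 and stood at 2.77 and 3.83. The integrin genes ITGAV (0.82), ITGB5 (0.22) and ITGB1 (0.17) were within 2-fold at 20 nM. In this list 2 of 5 detected members passed 2-fold upward at 10 nM and 1 of 4 at 20 nM, 0 passed it downward, and the medians were 0.55 and 0.52. Among 9 FHL and other LIM-only genes, 5 were detected with 2 higher at each dose, 0 lower and a median of 0.89 at both. Without FHL2, 2 of 4 were higher at 10 nM and 1 of 4 at 20 nM, with medians of 1.22 and 0.86. LMO4 stood at 1.26 at 20 nM, CRIP2 at 0.89 and CSRP1 at 0.82. Of the 6 CCN family genes, CCN1 and CCN2 were named, and their median was 4.33 at 10 nM and 5.97 at 20 nM.

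Between the doses, 2.72% of detected named genes were at least 2-fold higher and 4.82% lower. The counts of genes at least 2-fold higher at 20 nM than at 10 nM were 5 of 9 YAP and TAZ targets (1 of 5 without the genes described above, with a median of 0.14). For Hippo genes the count was 2 of 15 with 1 lower (1 of 13 with 1 lower without LATS2 and WWC1). It was 0 of 5 for YAP and its partners with TEAD4 lower. The counts were 0 of 5 for SRF and its cofactors, 1 of 17 cytoskeletal targets (FHL2) and 4 of 8 immediate early targets. For the LIM-only list the count was 1 of 5 (FHL2) and for CCN receptors 1 of 5 with 1 lower.

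CCN1, CCN2 and several cytoskeletal SRF targets are also expressed by stromal cells. All samples were LNCaP cells in culture, so the sums below describe marker transcripts and not shares of cell types. Of 10 stromal markers, VIM, ACTA2 and TAGLN were named and were detected on all 3 arrays, and the other 7, among them the collagen genes, were not named. The summed normalized signal of these 3 was 1509 on vehicle, 2366 at 10 nM and 2105 at 20 nM. ACTA2 and TAGLN are also in the list of cytoskeletal SRF targets, so this sum does not separate stroma from that list. Of 12 luminal prostate markers, 10 were named and detected on vehicle and 10 nM, and 9 at 20 nM, with summed signals of 10345, 10999 and 10834. Within that sum the luminal genes differed in direction. At 20 nM 2 of 10 were at least 2-fold higher and 4 lower, against 14.7% and 16.6% of all detected named genes. Log2 fold changes of the luminal genes ran from -2.38 for KLK2, not detected at 20 nM, and -2.19 for SPDEF to 1.91 for TMPRSS2. Of 6 leukocyte markers CD68, CD14 and HLA-DRA were named, with 2, 2 and 3 detected on the 3 arrays and summed signals of 357.8, 610.8 and 940.2 in the order of dose. Of 5 endothelial markers VWF was named, at 41.4, 33.8 and 12.2, not detected at 20 nM. The part of these markers in the results was not tested. No basal marker of 5 was named. RNA was taken in bulk, so a change in the number of cells and a change in RNA per cell cannot be told apart.

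**Figure D5:**
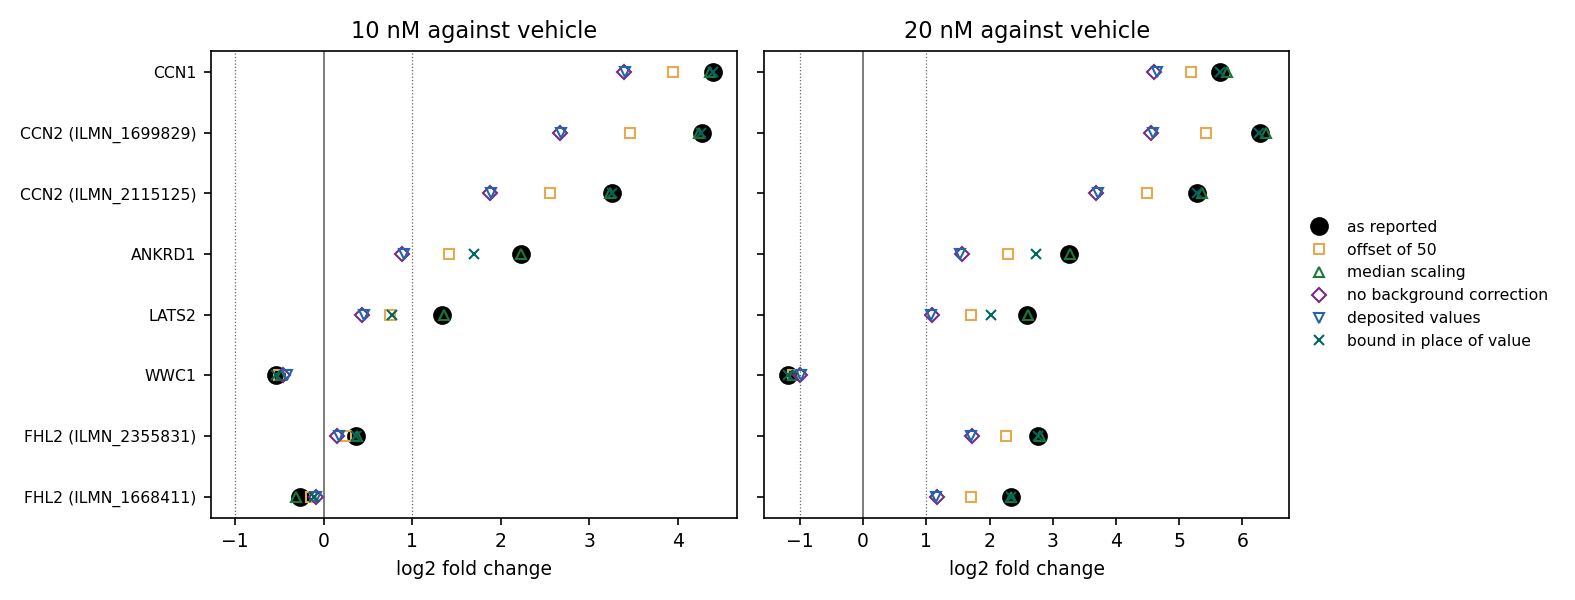
Log2 fold change of each of the 8 probes against vehicle at 10 nM (left) and 20 nM (right) under 6 ways of processing, with dotted lines at 2-fold. Every probe keeps its side of 0 in the settings drawn, and the values without background correction and the deposited values lie nearest to 0, such as 4.60 against 5.65 for CCN1 at 20 nM.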

How the data were processed

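The authors' deposited table gives a non-normalized signal intensity and a detection p-value for each of 47323 probes on 3 arrays, per the file headers. The submitters' processing notes name BeadStudio 3.0 and do not say whether it subtracted background. A smaller deposited table of 13753 probes holds the same intensity values (41259 of 41259 equal) for probes with a detection p-value below 0.05 on 2 or more arrays and a signal at least 10% from vehicle at either dose, a rule found from the values that missed 1 probe. Gene symbols were given for 10952 of its probes and updated by gene identifier, which left 36371 probes unnamed.

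A normexp model, whose background was inferred from the detection p-values, corrected each array (limma 3.58.1 under R 4.3.3). After an offset of 16, quantile normalization and log2 followed. A larger offset makes fold changes of dim genes smaller, and whether the values given for dim genes are too small or too large was not tested. Where a probe was detected on 1 array of a pair, "at least" gives the bright value over the higher of the dim value and the lowest detected value on that array. Such a bound holds under this processing alone, and folds without background correction can lie below it. Log2 fold changes varied among probes of 1 gene with an SD, pooled over at least 1792 genes, of 0.31 at 10 nM and between the doses and of 0.44 at 20 nM. With 1 array per treatment, no test was made. The steps were run on simulated data with folds planted only in probes well above background. That run therefore does not cover probes near background on vehicle, such as those of ANKRD1, LATS2 and CCN2.

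The 6 genes and the lists were chosen with earlier results of these data known. Named genes were the members, up to 4 genes per list farthest from vehicle at 20 nM, and the 3 nearest to each member, with provisional symbols passed over. Others are said to be named after their values were seen. Promoter sequences are from RefSeq (GRCh38.p14). The files state no build for the probes, and a planned comparison of protein sequences was not run.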

Additional observations from a re-analysis of the deposited data

How the results depend on the processing

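No paired analysis was possible because each treatment had 1 array. Under the 7 alternatives, all 8 probes kept their sign in each of the 3 comparisons. Counts of probes or genes past 2-fold moved mainly where background was kept, and the cause was not tested. Without background correction, and equally in the deposited values without normalization, the member probes at least 2-fold higher at 10 nM numbered 3 in place of 5, and those lower at 20 nM 0 in place of 1. In the same settings, genes at least 2-fold higher at 10 nM were 3 in place of 5 YAP and TAZ targets, 0 in place of 3 Hippo genes, 1 in place of 3 for YAP and its partners, 0 in place of 1 cytoskeletal SRF target, 3 in place of 6 immediate early targets and 1 in place of 2 CCN receptors. At 20 nM, 3 in place of 5 Hippo genes were higher and 0 in place of 2 lower. Between the doses, 2 in place of 5 YAP and TAZ targets, 0 in place of 2 Hippo genes, 2 in place of 4 immediate early targets and 0 in place of 1 CCN receptor were higher, and 0 in place of 1 lower for CCN receptors and for YAP and its partners. With an offset of 50, Hippo genes numbered 1 higher at 10 nM, 1 lower at 20 nM and 0 higher between the doses, CCN receptors 1 higher at 10 nM, and YAP and TAZ targets 2 higher between the doses. Under median scaling, 1 in place of 0 of the SRF and cofactor genes was higher between the doses. Another 26 of 420 counts differed by 1.5 times or less. Among them, without background correction, the member probes higher between the doses numbered 5 in place of 7, immediate early targets higher at 20 nM 6 in place of 8 and YAP and TAZ targets 5 in place of 6, and under median scaling 3 in place of 2 Hippo genes were lower at 20 nM. ANKRD1, LATS2 and the brighter CCN2 probe were not detected on the vehicle array, which limits their folds against vehicle to bounds. The dimmer CCN2 probe was detected there, but near background.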

Other observations

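Some genes of the same pathways were farther from vehicle at 10 nM than at 20 nM, unlike CCN1, CCN2, ANKRD1, LATS2 and FHL2. They were chosen after their values were seen. TAOK3, a kinase gene upstream of the Hippo kinases, read 246 on vehicle, 488 at 10 nM and 189 at 20 nM, with log2 fold changes of 1.39 and -0.63 against vehicle. The integrin gene ITGA5 was detected at 10 nM alone, with signals of 130, 187 and 118. The LIM-domain gene CSRP1 read 715, 1955 and 1219, log2 fold changes of 1.54 and 0.82, and CRIP2 read 190, 387 and 262. Each of these rests on 1 probe.

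Probes of 1 gene were apart for some cytoskeletal SRF targets, also chosen after their values were seen. At 20 nM the brighter probes of the tropomyosin gene TPM1 stood at 0.32 and -0.03, while its dimmer probes, not detected on vehicle, read 127 and 113 there and 218 and 194 at 20 nM. The caldesmon gene CALD1 stood at 0.50 by its brighter probe and 1.60 by the other.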
